A study of Sus scrofa with 16 samples.

Results

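The windows described here are stretches of 500 bp on chromosomes 1 to 18 of the pig genome (build Sscrofa10.2) whose middle lay under a methylation peak in Tibetan pigs of both elevations and in no Yorkshire pig. Methylation was profiled by MeDIP-seq in the hearts of 16 male pigs of 6 months of age, namely Tibetan pigs of the highland (TH) and of the lowland (TL) and Yorkshire pigs of the highland (YH) and of the lowland (YL), with 4 animals in each group. The methods describe the pigs as castrated, and as fed alike only within an elevation, so that elevation and feeding cannot be told apart. The YH and TL pigs descended from animals that had been moved to that elevation only a few years before, while TH and YL pigs were kept where their breed was already raised. Each group came as a single joint list of peaks without animal names, in which at most 4 peaks lay over the middle of any window. In the YH list the peaks stood in 4 successive sorted runs of 63138 to 76743 peaks, with 0 overlaps inside a run, and each peak over a base was read as 1 animal. The other lists show no such runs, so for TH, TL and YL this reading rests on the limit of 4 peaks alone.

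Members were chosen by their peak counts. A window entered the set when its base 250 lay under 2 or more TH peaks and 2 or more TL peaks and under 0 peaks of YH and YL. This gave 1548 windows among the 620135 windows with at least 1 peak on these chromosomes, or 0.250% of them. Joined where they adjoin, they formed 1121 regions with a summed length of 774000 bp, which is 0.0316% of chromosomes 1 to 18. The mirrored rule, with 2 or more peaks in both Yorkshire lists and 0 in both Tibetan lists, found 6071 windows (0.979%) in 4292 regions. Because the peaks themselves made the selection, the presence and absence of peaks in these windows is a description, and no test of the breeds was made on it.

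In mammals, DNA methylation lies mainly on cytosines that are followed by guanine, and most of these sites outside CpG islands are methylated in somatic tissue. The pattern is copied when a cell divides, and methylation at a promoter often goes with low expression of its gene. MeDIP pulls down methylated DNA fragments with an antibody, so a peak marks a place where many methylated fragments piled up. The absence of a peak says only that the caller did not find such a pile, and not that the DNA was unmethylated. The lists held 258861 TH, 240851 TL, 263514 YH and 305654 YL peaks on chromosomes 1 to 18, and the weakest peaks had 11 to 13 tags (reads counted in a peak). Both Yorkshire lists were thus longer than both Tibetan lists, and the part of list length in the larger number of Yorkshire-only windows was not tested beyond the following count. When the lists were cut to equal numbers of peaks by tags, 2029 Tibetan-only and 5133 Yorkshire-only windows were found.

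Full agreement of the 8 Tibetan animals against the 8 Yorkshire animals was rare. Only 3 of the 1548 windows had peaks in 4 TH and 4 TL animals. Another 35 windows (2.26%) had peaks in 7 of the 8 Tibetan animals, 158 in 6 and 480 (31.0%) in 5. The remaining 872 windows (56.3%) stood at the lower limit of the rule, with 2 animals of each list. A window that is to stay in the set whichever Tibetan animal is left out needs 3 peaks in each list, and 125 windows had them. The Yorkshire-only windows held more animals per window, with 92 windows (1.52%) at 8 of 8 animals and 2685 (44.2%) at the limit of 2 and 2.

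**Figure D1:**
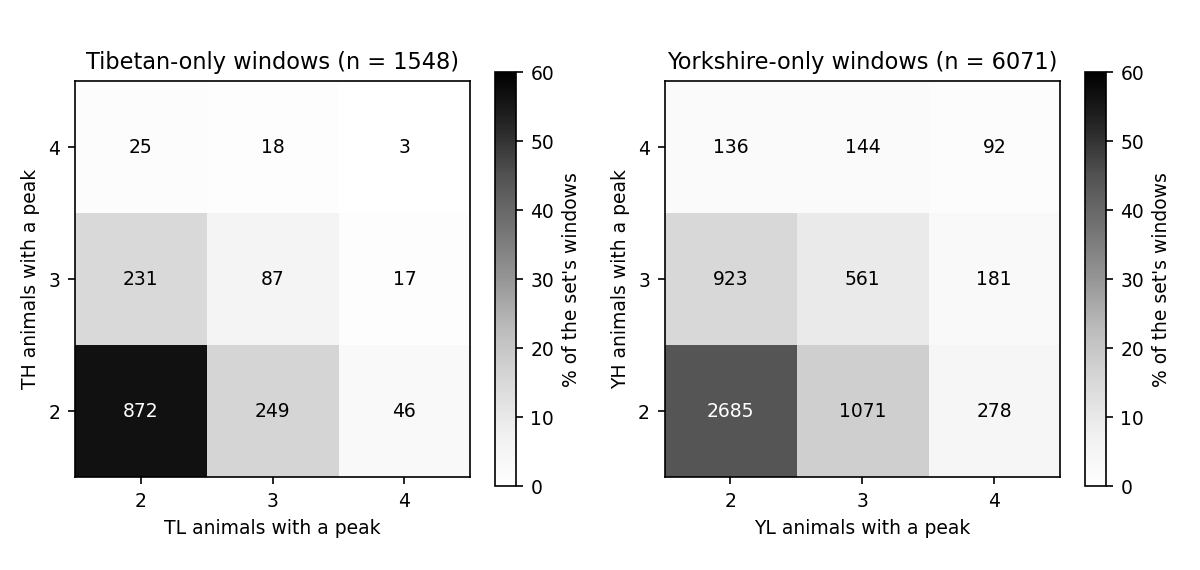
Number of windows by how many highland animals (vertical axis) and lowland animals (horizontal axis) had a peak, for the Tibetan-only set (left) and the Yorkshire-only set (right); grey shade is the percent of the set. The darkest cell is 2 and 2 in both sets, with 872 and 2685 windows, and the cell of 4 and 4 holds 3 and 92.

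Seen from the other side, windows that many Tibetan animals shared were seldom free of Yorkshire peaks. Of the 19035 windows with peaks in 4 Tibetan animals (2 per list), 4.58% had none in Yorkshire pigs. This share was 1.94% at 5 animals, 0.751% at 6, 0.21% at 7 and 0.0275% of 10915 windows at 8. For Yorkshire pigs the same share fell from 12.6% at 4 animals to 0.35% at 8, and lay above the Tibetan share at each number. The rule fixes where these windows lie on the scale, so the shares were not tested.

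**Figure D2:**
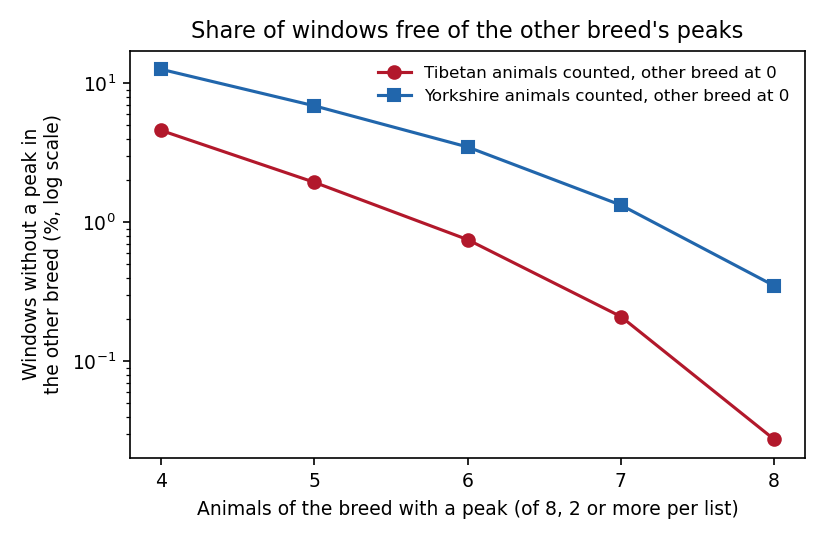
Percent of windows without a peak in the other breed (log scale) against the number of animals of the counted breed with a peak, from 4 to 8, with at least 2 in each list. The Tibetan line (circles) falls from 4.58% to 0.0275% and lies below the Yorkshire line (squares) at all points.

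The windows just outside the rule were more numerous than those inside it. Among the 92383 windows with 2 or more TH and 2 or more TL peaks, 1548 (1.68%) had 0 Yorkshire peaks and 3183 (3.45%) had a single one, 1321 of these in the YH list and 1862 in the YL list. At the other end, 23244 (25.2%) had peaks in all 8 Yorkshire animals. With 0 Yorkshire peaks and 2 or more TH peaks, 3685 windows missed the rule by having a single TL peak and 8397 by having none. The corresponding numbers with 2 or more TL peaks were 2435 windows with a single TH peak and 4458 with none. Of the 1321 windows that a single YH peak kept out, the 4 runs of the YH list accounted for 437, 325, 200 and 359, or 5.72, 4.58, 3.17 and 4.68 for each 1000 peaks of the run. Leaving out 1 run at a time, which was decided on after the runs were seen, gave 1748 to 1985 Tibetan-only windows and 3767 to 4367 Yorkshire-only windows, the latter down from 6071 since YH then had 3 runs from which 2 peaks were needed.

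The rule can be split into its highland and lowland parts. This split is a description and no separate check, because the set was chosen on every list. Of the 32273 windows with 2 or more TH and 0 YH peaks, 1548 (4.8%) had 2 or more TL and 0 YL peaks, against 2.62% of all windows with a peak. In 3026 (9.38%) of them the lowland pair went the other way, with 2 or more YL and 0 TL peaks, beside 9.14% of all windows. A further 8397 (26.0%) had no lowland peak in either breed, beside 20.5% of all windows, and 2442 (7.57%) had 2 or more in both, beside 16.3%. The mean number of lowland animals with a peak was 0.734 in TL and 0.942 in YL over these windows, beside 0.882 and 1.25 over all windows with a peak. Chosen in the same way for Yorkshire pigs, 33027 windows had 2 or more YH and 0 TH peaks, and of these 18.4% had 2 or more YL and 0 TL peaks and 2.59% the reverse. The 1548 windows are the set itself, and the 18.4% are the Yorkshire-only set. The windows with any peak needed no highland peaks to be counted, so they are not a like-for-like baseline. Neighbouring windows lie under the same peaks, and these shares were not tested.

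The window with all 8 Tibetan animals that lay farthest from a Yorkshire peak was chr13:191747501-191748000. The 4 TH peaks over it had 13, 17, 22 and 17 tags and fold enrichments (tags at the summit over the local background) of 12.63, 11.57, 14.54 and 12.83. The 4 TL peaks had 16, 17, 12 and 13 tags and fold enrichments of 12.92, 11.28, 11.14 and 8.14. These peaks were short, from 464 to 729 bp, and their summits lay within 122 bp of each other. The nearest Yorkshire peak was 15018 bp away, so no Yorkshire peak came near these 8. The tag counts were low for all 8 animals, below the list medians of 27 in TH and 25 in TL.

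The other two windows had Yorkshire peaks at their edge. At chr11:12331001-12332000, a region of 2 windows, the 4 TH peaks had 25 to 45 tags and fold enrichments of 8.87 to 14.1, and the 4 TL peaks had 16 to 30 tags and fold enrichments of 6.25 to 9.61. A single YH peak of 16 tags reached 40 bp into it from the left, and no YL peak did. At chr13:85597001-85597500 the 4 TH peaks had 35 to 43 tags and the 4 TL peaks 24 to 47, but 2 YH peaks of 26 and 20 tags and 1 YL peak of 24 tags ended inside the same window without reaching its base 250. The summits of all these peaks, Tibetan and Yorkshire alike, lay to the left of that window, between 85596763 and 85596980. Here 3 Yorkshire animals had a peak that overlapped the Tibetan ones, and the other 5 had none.

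**Figure D3:**
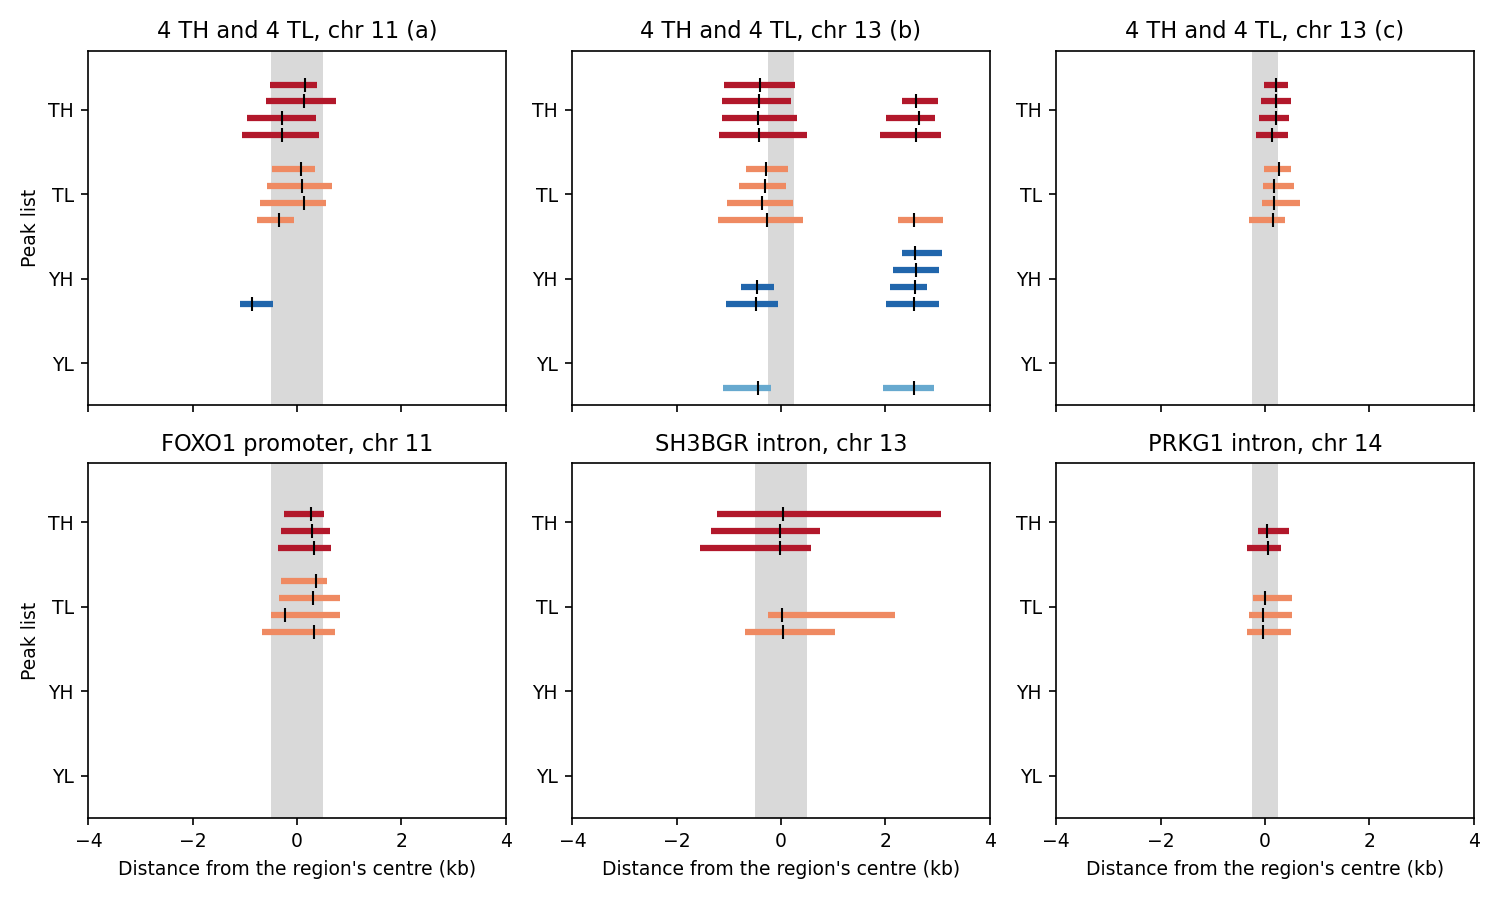
Peaks of the 4 lists around 6 regions, drawn as bars by their distance in kb from the region's centre, with a tick at each summit and the region shaded; within a list each lane is drawn only to keep overlapping peaks apart. The upper row shows the 3 regions with 4 TH and 4 TL peaks, of which the middle one has 3 Yorkshire peaks at its edge, and the lower row shows the regions at FOXO1, SH3BGR and PRKG1, which have none within 4 kb.

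Such contact at the edges was measured over the whole set. In 752 of the 1121 regions (67.1%), none of the Tibetan peaks over the region touched a Yorkshire peak, and these regions held 1101 windows (71.1%). Of those windows, 85 had 3 or more peaks in both Tibetan lists and 1 had 4 in both, the window of chromosome 13 described first. Of the 5177 pairs of a region and a Tibetan peak over it, 1551 had a peak that touched a Yorkshire peak. The summit lay inside the region in 73.0% of these 5177 pairs, and 202 regions held no summit at all. In the Yorkshire-only set, 40.9% of the regions were free of contact, and the summit lay inside the region in 49.7% of the pairs. Measured from the edge of a region, the nearest Yorkshire peak was at a median distance of 1782 bp (quartiles 13 and 4824 bp). It overlapped 273 regions (24.4%), was more than 2000 bp away from 527 (47.0%) and more than 10000 bp away from 108 (9.63%).

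Of the regions, 3 had a gene in the part of the study's own annotation that was used here. The annotated list was made by the authors from the reads of the same animals, so it is not independent of the peaks. FOXO1, a forkhead transcription factor that controls metabolism, atrophy and stress genes in heart and other muscle, had the region chr11:15691501-15692500, annotated as promoter. The paper counts several kb before the start of transcription as promoter, so the region's distance from that start is not known here. The 3 TH peaks had 28, 17 and 15 tags with fold enrichments of 17.6, 9.81 and 10.18. The 4 TL peaks had 49, 36, 33 and 18 tags with fold enrichments of 15.07, 12, 14.68 and 8.86. The nearest Yorkshire peak was 10208 bp away, and thus 7 of 8 Tibetan and 0 of 8 Yorkshire animals had a peak over this region.

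SH3BGR, which encodes a small protein of heart and skeletal muscle, had the region chr13:213330501-213331500, annotated as intron. Its 3 TH peaks had 71, 55 and 159 tags and its 2 TL peaks 55 and 65. These were the highest tag counts and the lowest fold enrichments among the 3 genes, with 6.69 to 8.1 in TH and 5.71 to 6.24 in TL. The 5 summits lay within 65 bp of each other, and the nearest Yorkshire peak was 8591 bp away. That neighbouring peak was present in all 4 YH and all 4 YL animals and also in 3 TH and 2 TL animals, so the Yorkshire pigs were not without peaks around the region. PRKG1, the cGMP-dependent kinase that relaxes vascular smooth muscle, had the window chr14:106530001-106530500, annotated as intron. Its 2 TH peaks had 15 and 17 tags and its 3 TL peaks 17, 19 and 14, with fold enrichments of 9.67 to 12 over both lists. The 5 summits lay within 103 bp, and the nearest Yorkshire peak was 9154 bp away.

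In 28 regions, that of FOXO1 included, the highest window had 7 Tibetan animals. Of these, 10 are named here by their number of windows and then their position. The longest of these was chr16:23674001-23675500, with 4 TH peaks of 17 to 48 tags and 3 TL peaks of 29 to 43 tags. Regions with 4 TH and 3 TL animals were also found at chr1:93405001-93406000, chr2:29304501-29305500, chr3:9544001-9545000, chr5:48708501-48709500, chr6:144948501-144949500 and chr9:117737501-117738500. Regions with 3 TH and 4 TL animals were found at chr3:72005001-72006000, chr6:104468001-104469000 and chr8:35114501-35115500. The summits agreed best at the region of chromosome 2, where all 7 lay within 46 bp, and at that of chromosome 3 near 72 Mb, where they lay within 49 bp. Distance from Yorkshire peaks varied more, from 37 bp at the region of chromosome 1 to 28078 bp at that of chromosome 5. The region of chromosome 5 also had the highest fold enrichments of the 10, from 10.35 to 15.43 in TH and from 9.23 to 12.89 in TL, on only 11 to 24 tags.

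The peaks over the 3 longest regions had many tags but fold enrichments of only 3.42 to 6.05, below the lower quartiles of all peaks (6.48 in TH and 6.1 in TL). The longest, chr6:9518001-9521500, spanned 7 windows, with 2 TH peaks of 185 and 194 tags and 4 TL peaks of 105 to 173 tags. Each of the next ones spanned 6 windows. At chr3:29735501-29738500 there were 3 TH peaks of 190 to 296 tags and 3 TL peaks of 257 to 354 tags. The summits of these 6 peaks lay between 29733840 and 29734762, to the left of the region. There 3 YL animals also had peaks, of 195, 77 and 74 tags, with summits between 29734274 and 29734405, and the nearest of them ended 151 bp before the region. No YH peak lay at this place. At chr8:145631501-145634500 there were 2 TH peaks of 151 and 240 tags and 2 TL peaks of 141 and 181 tags, whose summits lay within 49 bp. Such lengths were uncommon, since 793 regions (70.7%) were a single window and 76 (6.78%) had 3 or more.

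As a whole, the Tibetan peaks over the set had medians near those of all peaks of their lists. Their median fold enrichment was 8.56 in TH (quartiles 6.77 and 10.6) and 7.92 in TL (6.12 and 9.79), beside 8.28 and 7.88 for all peaks of chromosomes 1 to 18. The median number of tags was 24 in each list, beside 27 and 25 for all peaks. The median length was 960 bp in TH and 924 bp in TL, beside 992 and 941 bp. Peaks over windows that had 2 or more animals in every list were stronger by tags, with medians of 34 in TH and 32 in TL. They were also longer, with medians of 1184 and 1122 bp. A count under 20 tags was found in 34.9% of the TH peaks and 36.4% of the TL peaks over the set, beside 30.2% and 34.1% of all peaks and 15.8% and 17.3% over those shared windows. In the Yorkshire-only windows the peaks had more tags than their lists (medians of 33 against 29 in YH and 35 against 30 in YL) and greater lengths (1212 against 1023 bp and 1243 against 1040 bp). Their median fold enrichment was lower than that of their lists, at 6.73 against 7.29 in YH and 7.07 against 7.49 in YL. With peaks under 20 tags removed from all lists, 972 Tibetan-only windows were found, against 6192 Yorkshire-only windows.

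**Figure D4:**
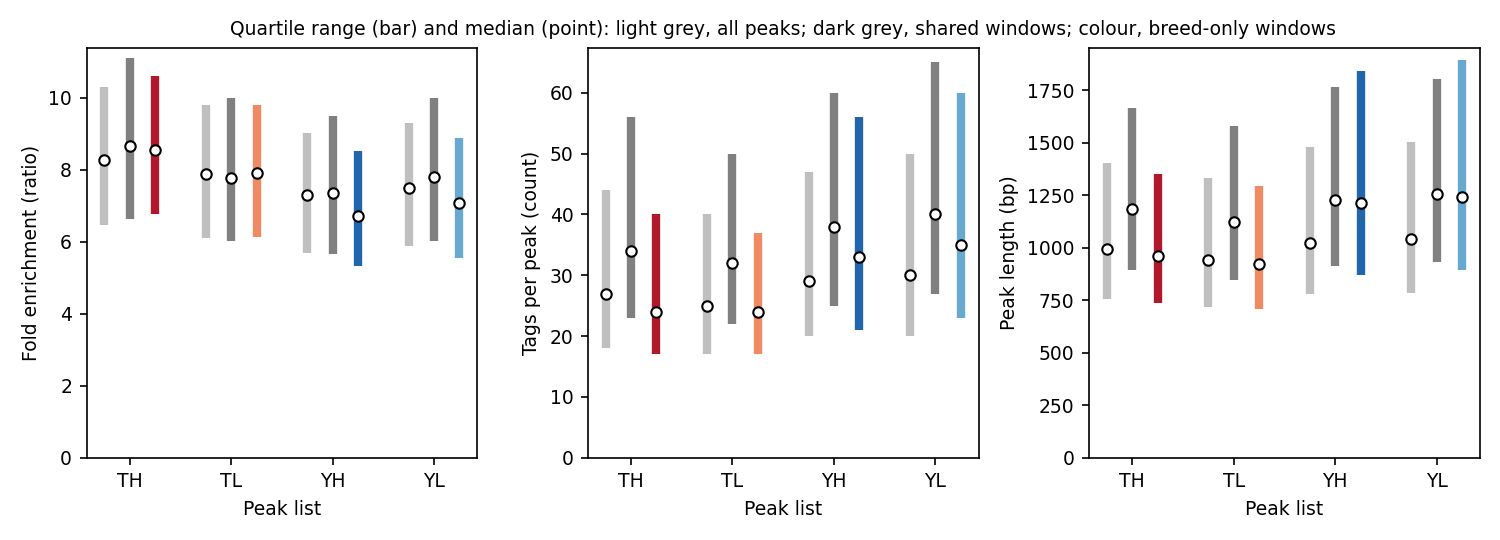
Quartile range (bar) and median (point) of fold enrichment, tags per peak and peak length in bp for each list, for all peaks of chromosomes 1 to 18 (light grey), peaks over windows with 2 or more animals in every list (dark grey) and peaks over the windows of that breed only (colour). The TH and TL medians of tags over Tibetan-only windows are 24 and 24, below both grey points, whereas those of YH and YL are 33 and 35, above the light grey points.

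The peaks counted at a window all cover its base 250, so the rule itself brings their summits close. Windows shared by both breeds were not measured for this. Over a region, the summits of the Tibetan peaks spanned a median of 128 bp, and in 776 of the 1121 regions (69.2%) they lay within 250 bp of each other. In regions of a single window the span had a median of 112 bp, with quartiles of 68 and 248 bp. In the Yorkshire-only regions, whose peaks were longer, the median span was 193 bp and 54.7% lay within 250 bp. By the number of Tibetan animals at a window, the median fold enrichment was 8.28 (TH) and 7.76 (TL) at 4 animals and 9.47 and 8.66 at 7. The median tags were 24 in both lists at 4 animals, and 25 (TH) and 28 (TL) at 7. Only 35 windows had 7 animals.

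The rule treats TH and TL alike, but 872 windows (56.3%) lay at its floor of 2 animals in each list. The set therefore holds many equal windows, and its shares are not like for like with those of all windows. In the set, 274 windows (17.7%) had more TH than TL animals with a peak, 312 (20.2%) had more TL than TH and 962 (62.1%) had equal numbers. Over all 92383 windows with 2 or more of both, TH exceeded TL in 22.5%, TL exceeded TH in 30.6% and the numbers were equal in 46.9%. The mean number of animals was 2.28 in TH and 2.31 in TL over the set, beside 2.82 and 2.92 over all 92383. Of the windows with unequal numbers, TH was ahead in 46.8% (95% Wilson interval 42.8–50.8%, counting error only), beside 42.4% over all 92383. Adjoining windows lie under the same peaks of the same animals, so this interval is too narrow, and no difference was tested. The rule asks for 2 animals of each list, so a window could differ by at most 4 animals against 2, and no window was tested.

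The windows were spread over all 18 chromosomes, at 0.632 windows per Mb on average, with the largest peak end taken as a chromosome's length. Density ranged from 0.345 per Mb on chromosome 16 to 0.948 on chromosome 18. Relative to the windows with 2 or more TH and TL peaks, the share of Tibetan-only windows ran from 0.908% on chromosome 10, 1.11% on chromosome 16 and 1.16% on chromosome 12 to 2.09% on chromosome 13. Chromosome 10 had the most Yorkshire-only windows per Mb (3.82) and the fewest Tibetan-only windows for each Yorkshire-only window, at 0.136, and on each of the 18 chromosomes the Tibetan-only windows were the fewer. In the outer 10% at each chromosome end lay 30.2% of the set, beside 28.9% of all windows with a peak. Among those with 2 or more animals in every list the share was 35.6%. The 95% Wilson interval for the set, 28.0–32.6%, counts neighbouring windows as independent, which they are not. By chromosome the share at the ends ran from 3.85% on chromosome 17 to 46.7% on chromosome 14, and it was below that of all windows with a peak on 10 of the 18.

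**Figure D5:**
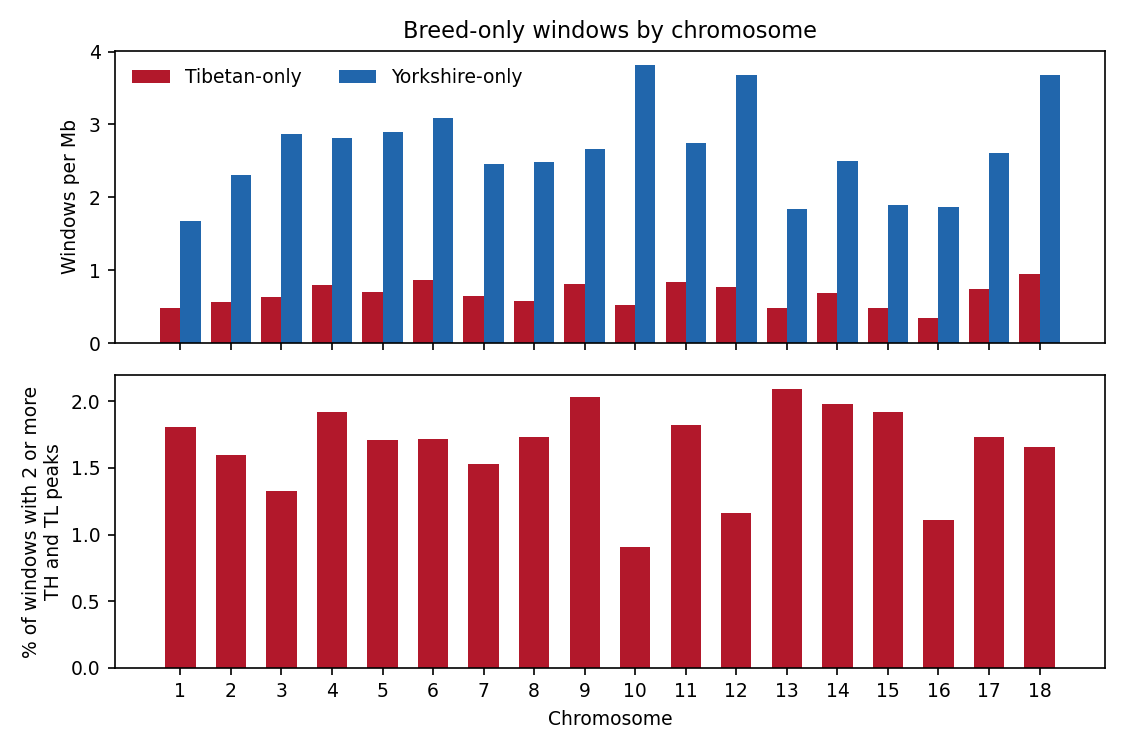
Tibetan-only and Yorkshire-only windows per Mb by chromosome (upper panel), and Tibetan-only windows as percent of the windows with 2 or more TH and 2 or more TL peaks (lower panel). Chromosome 10 is highest for Yorkshire-only windows at 3.82 per Mb and lowest in the lower panel at 0.908%.

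The regions stood mostly alone. The median gap between neighbouring regions was 1292500 bp, and 20 regions (1.78%) had another within 10 kb (10000 bp). Of the 2457 bins of 1 Mb, 853 (34.7%) held at least 1 region and 2 held 5. Those 2 bins, picked after their values were seen, were on chromosome 6 from 67000001 to 68000000, where 4 Yorkshire-only regions also lay, and on chromosome 15 from 78000001 to 79000000, where there were 0. The median gap was 288500 bp between the 4292 Yorkshire-only regions, whose larger number alone shortens the gaps.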

How the data were processed

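MeDIP-seq libraries of 16 hearts (4 groups of 4 animals) were analysed from 4 deposited peak lists. Reads had been trimmed by the authors in FASTX 0.0.13. Bowtie 0.12.8 served as the aligner, against build Sscrofa10.2 of Ensembl release 69. Peaks came from MACS 1.4 at a DiffScore of 50 or higher. The deposited tags per peak are counts without normalization, and the deposited fold enrichment, also by MACS, is a ratio to the local background; positions, lengths and summits are in bp. Peak ends came from the joint start and end field, since 100907 TH rows give them only there, and lengths matched in all rows.

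From these lists, peaks over base 250 of each 500 bp window were counted per group and read as animals, which the lists do not name. The counting was tested on simulated data. The members, the named regions and the comparisons were chosen with earlier results of these data known. Named regions were those with a window of 4 TH and 4 TL peaks, up to 10 with 7 peaks (by number of windows, then position), the 3 longest, and those with a gene symbol in the used part of the authors' list of differentially methylated regions, from which gene and element were taken and no value. That list's own comparisons were not used. Sequence and other gene annotation were not analysed here, because no genome of this build was used. Reads per animal were not used, so counts rest on peaks alone, and the 95% intervals cover counting error only. With no values per animal name, no test of breed was run. Alternatives were lists of equal size, peaks of 20 or more tags, other overlaps with the window, 3 animals per list, flanks of 500 and 2000 bp without peaks of the other breed, chromosome X, means for medians, ends of 5% and leaving out animals. Leaving out runs of the YH list, and the distances under other limits on peaks, were added after seeing the data. Figures were drawn in Matplotlib 3.10.9, and the counting was done in Python 3.11.15 with pandas 2.3.3, SciPy 1.17.1 and NumPy 2.4.6.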

Additional observations from a re-analysis of the deposited data

Results flagged for a closer look

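Outside chromosomes 1 to 18, which the comparisons did not use, the same rule found 19 windows on chromosome X (11 regions), or 0.0899% of its 21144 windows with a peak, beside 328 Yorkshire-only windows. On unplaced scaffolds it found 71 windows, or 0.213% of 33259, beside 371 Yorkshire-only windows. On chromosome Y it found 1 of 62 windows with a peak, beside 0 Yorkshire-only windows. One scaffold window had peaks in 4 TH and 4 TL animals. These windows were brought up only because they lie in data that the report leaves aside, and no cause was tested.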

How the results depend on the processing

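Yorkshire-only windows outnumbered Tibetan-only windows under the alternatives that counted both sets, except at the upper limit for leaving out any Yorkshire animal, given below. The Yorkshire-only windows numbered 3767 without the second and 3885 without the fourth run of the YH list, against 6071 with all 4. The number of Tibetan-only windows and regions was 972 and 592 with peaks of at least 20 tags, 788 and 654 where a peak had to cover the whole window, 125 and 99 with 3 or more animals in each list, and 797 and 563 without a peak of the other breed within 2000 bp. Any overlap of 1 bp gave 2444 windows. The number of Tibetan-only windows for each Yorkshire-only window was 0.255 as reported, 0.157 with at least 20 tags, 0.395 with equal numbers of peaks, 0.314 with any overlap, 0.193 with whole windows, 0.128 with 3 or more animals, and 0.35 and 0.37 without a peak of the other breed within 500 and 2000 bp. The share at chromosome ends was 39.4% with at least 20 tags, 26.1% with equal numbers of peaks, 36.5% with whole windows, 24.8% with 3 or more animals and 16.3% with ends of 5%. The share of windows with more TH than TL peaks was 14.5% with whole windows and 14.4% with 3 or more animals. Regions more than 2000 bp from a Yorkshire peak made up 38.2% with at least 20 tags and 59.1% with equal numbers of peaks. The cause of these changes was not tested, except that asking for 3 animals, or for no peak of the other breed nearby, can only remove windows.

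Single animals could not be left out by name. The windows that stay whichever Tibetan animal is left out, those that could enter if a Yorkshire animal is left out, and the sets without a run of the YH list gave 125 to 4731 windows, 99 to 3306 regions, 24.8% to 31.3% at the ends and 14.4% to 19.2% with more TH than TL peaks. The Tibetan-only windows for each Yorkshire-only window had limits of 0.00753 and 4.84, which pair the extreme counts of both sets (125 with 16591, and 4731 with 978), so for a YL animal the limits do not settle which set is the larger. Without a run of the YH list the value was 0.416 to 0.497. The other 48 of 85 alternative values moved by less than their limits (1.5 times for counts, the 95% interval for shares, the quartiles for fold enrichment, tags and length). No paired analysis was possible because the peaks carry no animal numbers and the results come from no test.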
